A study of Mus musculus with 71 samples.

Results

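The 9 genes described here, Ifit1, Ifit3, Isg15, Irf7, Irf9, Oasl2, Ifih1, Stat2 and Bst2, are interferon-stimulated genes of the mouse, taken by name from the RNA-seq tables. They stand for 14 of the 34010 RefSeq accessions counted in each library, and for 9 of 24134 genes with a symbol. The RNA-seq compared wild-type (WT) R1 mouse embryonic stem cells (mESCs) with H1-TKO mESCs, with 2 poly(A) libraries per genotype. H1-TKO cells are R1 cells with a knockout of the genes of 3 linker histones, H1c, H1d and H1e. The study reported lower total H1 protein in these cells and calls the depletion of H1 partial. The knockout was made with CRISPR/Cas9 and 1 guide shared by the 3 genes, colonies grown from sparse plating were picked, and how many clones stand behind the libraries is not given in the sources used here. Both genotypes were grown on gelatin with LIF, and neither received interferon or another agent in the labels. The second data type used was H3K27me3 ChIP-seq, with 1 peak list per genotype.

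Linker histone H1 binds the nucleosome where DNA enters and leaves it and helps chromatin to compact. Type I interferons bind a receptor made of IFNAR1 and IFNAR2, the kinases JAK1 and TYK2 then act on STAT2, and STAT2 and IRF9 take part in the complex ISGF3, which binds interferon-stimulated response elements (ISREs) in front of its target genes. Pluripotent cells are known for a weak interferon response, and loss of H1 has been linked to an interferon response in other cells. The comparison of H1-TKO with WT mESCs asked whether such a response was seen here, where H1 was depleted in part.

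No joint rise of the 9 genes was seen in H1-TKO mESCs. Stat2 alone passed the test, 1.73-fold higher in H1-TKO, and Bst2 stood at nearly the same level in both genotypes. Ifit1, Isg15 and Oasl2 each had their lower values in the H1-TKO libraries, on few reads. Ifit1 and Isg15 were too low to enter the main test, and Oasl2 did not pass it. Irf7, Ifit3 and Ifih1 had 2 reads or fewer in all libraries together, and Irf9 had few reads in both genotypes. As the libraries are bulk samples, fewer cells that express a gene and less RNA per cell cannot be told apart.

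The genotype of each RNA-seq library was taken from the name in its table, because the sample labels name all 4 libraries the other way round. Each library equalled the column of the same genotype in the study's source data in 100% of the 1999 rows that could be read, while 18633 more rows could not be read. Each direction given here would turn if the sample labels were followed. The growth label of these samples names HeLa cells, while their cell type label says mouse embryonic stem cells, and the tables hold mouse accessions. The knocked-out genes, known as H1f2, H1f3 and H1f4, had few reads, and poly(A) selection leaves most histone transcripts out. H1f3 had 3.88 and 41.4 normalized counts in WT against 1.10 and 0 in H1-TKO, and H1f4 had 5.43 and 19.6 against 0 and 2.11. Both genes were thus lower in both libraries named H1-TKO, on few reads, as were 24.9% of the 20632 accessions with a read. H1f2 overlapped, with 11.6 and 56.7 in WT against 18.7 and 7.37 in H1-TKO. By limma neither H1f3 (adjusted p 0.105) nor H1f2 (adjusted p 0.390) was called, and H1f4 was under the filter for the test.

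A normalized count is the number of reads of an accession divided by the size factor of its library. WT replicates 1 and 2 held 10538507 and 8292007 recovered reads, H1-TKO replicates 1 and 2 held 6951619 and 7346122, and 1 read was worth 0.776, 1.09, 1.10 and 1.05 normalized counts. Summed over 9 pluripotency markers the normalized counts were 27054 and 39380 in WT against 46409 and 47067 in H1-TKO, with Pou5f1 and Sox2 high in every library. The list went both ways. Of 7 accessions tested, limma called Sox2, Klf4 and Dppa5a higher in H1-TKO, with log2 fold changes of 1.04, 1.45 and 0.90, and Tdgf1 lower, with -0.50 (adjusted p 0.0336). Pou5f1 was at -0.42 and was not called (limma adjusted p 0.301). All 4 accessions of Nanog were at 0, and the 2 of Esrrb reached at most 3.27. The zeros of Nanog belong to a wider pattern, in which 48.4% of 5158 genes with several accessions had a summed mean under 1, against 30.7% of 18976 genes with a single accession. Irf7, Irf9 and Ifih1 are among the genes with several accessions. Of the 8 fibroblast markers Dcn, Pdgfrb and Postn were at 0, and the list summed to 353.8 and 298.9 in WT against 510.1 and 576.1 in H1-TKO. Of the 7 immune cell markers Ptprc and Itgam were at 0, and the list summed to 89.2 and 133.1 in WT against 175.2 and 169.6 in H1-TKO. Their part in the results was not tested. Median log2 fold changes also differed by chromosome, at 0.49 on chromosome 1, -0.24 on chromosome 8 and -0.38 on chromosome 11. They lay from -0.08 to 0.06 on the other autosomes. On chromosome X the median was -0.09, and on chromosome Y it was -5.61 over 5 accessions tested. What lies behind these differences was not tested.

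Promoter sequence, which the choice of genes did not use, was examined first. The letters GAAANNGAAA, the core of an ISRE, were searched on both strands from 250 bases before to 50 bases after each RefSeq start. They were found in 6 of the 9 genes, against 3.99% of 27025 mouse genes and 3.44% of their 32851 promoters. The 6 genes also held the longer GAAANNGAAAC, which stood in 0.944% of genes and 0.819% of promoters. Among 95 interferon pathway genes with a promoter sequence, the 9 included, 39 held the shorter letters and 21 the longer ones. In 5 of the 6 genes the matches lay before the start, and these stretches are shown because their letters are of the kind that ISGF3 is known to bind, with the matching letters in capitals. A match describes the sequence and does not show that a factor binds there. They are RefSeq sequences in the direction of the gene, and each 300-base promoter matched its chromosome of NCBIM37 (mm9) exactly at 1 place.
Isg15, chr4:155574975-155575014, minus strand: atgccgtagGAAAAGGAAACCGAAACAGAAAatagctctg
Bst2, chr8:74061474-74061513, minus strand: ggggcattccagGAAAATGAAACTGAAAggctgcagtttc
Ifit1, chr19:34715270-34715309, plus strand: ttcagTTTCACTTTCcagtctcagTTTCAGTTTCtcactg
Ifit3, chr19:34657863-34657906, plus strand: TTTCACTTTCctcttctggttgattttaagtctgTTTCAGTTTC
Stat2, chr10:127707317-127707356, plus strand: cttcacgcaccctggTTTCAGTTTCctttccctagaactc

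Isg15 had 3 overlapping copies, which began 78, 72 and 66 bases before the start, and Bst2 had 2 overlapping copies from 130 and 124 bases before it. Ifit1 and Ifit3 had 2 separate copies each, read on the strand opposite to the gene. Stat2 had 1 copy on the opposite strand, 222 bases before the start, and Ifih1 had 1 copy 32 bases after it. The letters were not in the windows of Irf7, Irf9 and Oasl2. Isg15 and Bst2, whose copies are the most crowded, differed widely in level in these cells, as the values below show.

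Levels of the 9 genes spanned a wide range, from no read to the level of Bst2. Per kb of the longest GENCODE transcript, the mean level over the 4 libraries was 1170 for Bst2 and 161.7 for Stat2. It was 12.1 for Isg15, 5.24 for Oasl2, 2.05 for Ifit1 and 1.78 for Irf9, summed over the accessions of a gene. Ifit3 reached 0.222 and Ifih1 0.0355 per kb, and Irf7 was at 0. Bst2 and Stat2 stood above the other genes in every library. From Isg15 down, neighbours in this order overlapped between libraries, since Isg15 alone ranged from 0 to 44.1 per kb.

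**Figure D1:**
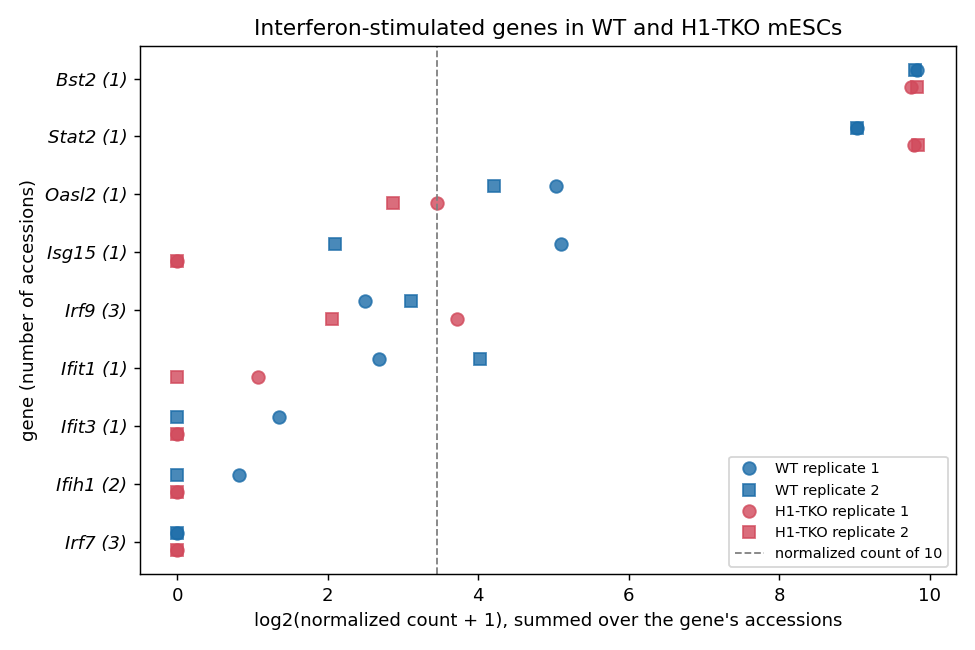
Level of each of the 9 genes in each library, as log2(normalized count + 1) summed over its accessions, with WT in blue, H1-TKO in red, circles for replicate 1 and squares for replicate 2. Bst2 and Stat2 lie far to the right, Stat2 is separated by genotype, and Ifit1, Isg15 and Oasl2 have their H1-TKO points to the left of the WT points.

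Of the 14 accessions 9 had a read in at least 1 library and 5 had none. Only 3 genes, Stat2, Bst2 and Oasl2, passed the filter for the test, a mean of 10 or more normalized counts across the libraries, and the other 6 are given by their counts. Among the 9 genes 1 was called higher in H1-TKO and 0 lower by limma at an adjusted p under 0.05. Of the 11113 accessions tested, 9.84% were called higher and 10.7% lower. Of the 3 genes tested, 0 were lower in limma at an unadjusted p under 0.05 too, and edgeR and DESeq2 at the same filter also called 0 lower.

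The signalling genes of the group are Stat2, Irf9 and Irf7. Stat2, on chromosome 10 from 127707629 to 127729905 on the plus strand, encodes the transcription factor that gives ISGF3 its transactivation domain. Its normalized counts were 522.9 and 520.3 in WT against 884.7 and 920.5 in H1-TKO mESCs, from 477 to 874 reads per library. Both H1-TKO libraries lay above both WT libraries, by far more than the replicates differed. The log2 fold change was 0.79 ± 0.14 (SE, 95% interval 0.45 to 1.13), with an adjusted p of 0.0126 in limma. The call was lost when either H1-TKO library was left out, with log2 fold changes of 0.82 and 0.76 and limma adjusted p of 0.138 without replicate 1 and 0.169 without replicate 2.

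Irf9, on chromosome 14 from 56222408 to 56228867 on the plus strand, encodes the DNA-binding subunit of ISGF3 and was counted under 3 accessions. One accession had no read. The second had 2.33 and 6.54 normalized counts in WT against 8.81 and 0 in H1-TKO, so that the genotypes overlapped. The third had 2.33 and 1.09 in WT against 3.31 and 3.16 in H1-TKO, from 3 and 1 reads in WT and 3 reads in each H1-TKO library. A difference between the genotypes was not detectable for either accession at this depth. Irf9 overlaps Rnf31 on the same strand, so that reads in the shared stretch cannot be told apart.

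Irf7, on chromosome 7 from 148448605 to 148452380 on the minus strand, encodes the factor that amplifies interferon production and is itself induced by interferon. Its 3 accessions were at 0 in every library. For each genotype a count of 0 allows up to 3 reads, a bound that covers counting error only. Irf7 overlaps Phrf1 on the opposite strand, and whether reads were counted by strand is not given in the sources used here. Whether the way reads of genes with several accessions were counted sets these zeros was not tested.

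The antiviral effectors of the group are Ifit1, Ifit3, Isg15, Oasl2 and Bst2. Bst2, on chromosome 8 from 74058163 to 74061336 on the minus strand, encodes tetherin, which holds budding virus particles at the cell surface. It had 910.0 and 891.2 normalized counts in WT against 861.6 and 912.1 in H1-TKO. The H1-TKO values lay on both sides of the WT values, so that the genotypes overlapped. The log2 fold change was -0.02 ± 0.14 (SE) with an adjusted p of 0.921 in limma, and the 95% interval from -0.35 to 0.30 bounds the size of a change in either direction. The accessions of chromosome 8 had a median log2 fold change of -0.24 over 617 tested, and less this median the value of Bst2 was 0.22.

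Oasl2, on chromosome 5 from 115346943 to 115362243 on the plus strand, encodes an antiviral relative of the oligoadenylate synthetases. Its normalized counts were 31.8 and 17.5 in WT against 9.92 and 6.32 in H1-TKO, from 41, 16, 9 and 6 reads. Both H1-TKO libraries lay below both WT libraries, but the WT libraries also differed from each other. The log2 fold change was -1.46 ± 0.64 (SE, 95% interval -2.95 to 0.03), with an unadjusted p of 0.0536 and an adjusted p of 0.139 in limma. Without WT replicate 2 the log2 fold change was -1.88 and its limma adjusted p 0.0489, and without WT replicate 1 they were -1.05 and 0.337.

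Isg15, on chromosome 4 from 155573533 to 155574927 on the minus strand, encodes a ubiquitin-like protein that is joined to other proteins in the antiviral state. Its normalized counts were 33.4 and 3.27 in the WT libraries and 0 in both H1-TKO libraries. WT replicate 1 held 93.5% of the 46 reads, and WT replicate 2 held 3 reads. For the 46 reads in WT against 0 in H1-TKO, the exact 95% interval of the ratio of H1-TKO to WT reached up to 0.0992, which covers counting error only. Without WT replicate 1 no ratio was given. Its mean of 9.16 kept it under the filter. With a filter at a mean of 1, chosen after its values were seen, limma gave an adjusted p of 0.0949 and edgeR 0.0565. With no filter the adjusted p was 0.103 in limma and 5.13e-05 in edgeR. Between limma and edgeR, a call was made by edgeR alone and only without a filter. DESeq2 was not run below the main filter.

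Ifit1, on chromosome 19 from 34715361 to 34724499 on the plus strand, encodes a protein that binds viral RNA lacking the host's cap marks. It had 5.43 and 15.3 normalized counts in WT against 1.10 and 0 in H1-TKO. These values came from 21 reads in WT against 1 read in H1-TKO, all WT values above all H1-TKO values. The ratio of H1-TKO to WT was 0.0566 with an exact 95% interval from 0.00137 to 0.352, which covers counting error only and not the spread between libraries. At a filter of 1 the adjusted p was 0.0908 in limma and 0.108 in edgeR, and with no filter 0.103 and 0.0498.

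Ifit3, on chromosome 19 from 34658021 to 34663221 on the plus strand, encodes a partner protein of IFIT1. It had 2 reads in WT replicate 1 and 0 in the other 3 libraries. A difference between the genotypes was not detectable at this depth. Ifit3 has a near-identical neighbour, and reads that map equally well to both were left out of the counts. Of the other Ifit genes on chromosome 19, Ifit3b had no read in WT and 1 read in each H1-TKO library, and Ifit1bl1 had none. Ifit2, also one of the other interferon genes below, lies on chromosome 19 from 34625184 to 34650909 on the same strand. It had 100.1 and 84.0 normalized counts in WT against 18.7 and 20.01 in H1-TKO. It fell by 2.19 on the log2 scale (SE 0.38, limma adjusted p 0.0110), and its call held in 14 of 14 alternatives.

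The sensor of the group is Ifih1, on chromosome 2 from 62433850 to 62484312 on the minus strand, which encodes MDA5, a detector of long double-stranded RNA. One of its 2 accessions had 1 read in WT replicate 1, and the other had none. No comparison could be made on 1 read, and as for Irf7, whether the counting of genes with several accessions sets the zeros was not tested.

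Without a threshold, the H1-TKO values of 3 accessions, those of Ifit1, Isg15 and Oasl2, lay below both WT values, and those of 2, Stat2 and an Irf9 accession, lay above. The other 4 accessions with a read overlapped. Among the 20632 accessions with a read, 24.9% had both H1-TKO values below both WT values and 26.1% had both above. The 3 lower and 2 higher of 9 accessions with a read lie close to this background, and no direction of the group is read from them.

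The other genes of the interferon pathway, from a list by role, came to 106 genes and 147 accessions. Of these, 27 genes were at 0 in every library, and some of them, such as Jak2, have several accessions. By accession 60 of the 147 were at 0, while 20632 of all 34010 accessions had a read. The filter was passed by 48 accessions. H1-TKO was higher for 2 and lower for 10 of the 48, which is 4.17% and 20.8% against the 9.84% and 10.7% of all accessions, and 36 were not called. With 1 library left out the counts moved to 8 higher and 17 lower without WT replicate 1, 8 and 13 without WT replicate 2, and 0 and 7 without either H1-TKO library. The calls over all 11113 accessions moved the same way, to 2682 higher and 2786 lower without WT replicate 1, 2386 and 2564 without WT replicate 2, 206 and 397 without H1-TKO replicate 1, and 199 and 386 without H1-TKO replicate 2. With all libraries their median log2 fold change was -0.16, against -0.03 over all accessions. No set test was made, since the lists were drawn up with earlier results of these data known.

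No ligand could be tested. Of the 19 interferon genes 14, Ifnb1 included, had no read, and the highest value of any was 8.43 normalized counts. The 6 receptor genes were all tested and none was called. Ifnar1 had 657.1 and 764.6 in WT against 635.7 and 623.5 in H1-TKO, a log2 fold change of -0.17 with a limma adjusted p of 0.461. Ifnar2, the second chain of the receptor, had 8.53 and 10.9 in WT against 33.1 and 25.3 in H1-TKO at its tested accession, a log2 fold change of 1.49 with a limma adjusted p of 0.0946. Jak1 had 986.1 and 811.5 in WT against 765.7 and 865.7 in H1-TKO and overlapped between genotypes, with a log2 fold change of -0.14 and a limma adjusted p of 0.576.

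No accession of Tyk2, the gene of the other receptor kinase, or of Irf3, a factor that switches on interferon genes, passed the filter. Both genes have several accessions.

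Of the inhibitors Socs3, which blocks cytokine receptor kinases, rose by 0.84 on the log2 scale (SE 0.15, limma adjusted p 0.0126), from 1584 and 2081 in WT to 3218 and 3298 in H1-TKO. The gene is also induced by LIF, with which both genotypes were grown. Of 22 other effectors tested, 7 fell and 1 rose. Irgm1, a GTPase of defence against bacteria inside cells, had 220.3 and 280.3 in WT against 7.71 and 12.6 in H1-TKO, a log2 fold change of -4.52 (SE 0.40, limma adjusted p 0.00173). It lies on chromosome 11, whose accessions had a median of -0.38. Gbp2, another such GTPase, had 373.9 and 150.5 in WT against 20.9 and 5.27 in H1-TKO and fell by 4.35. Its log2 fold change was -5.25 and -3.44 without H1-TKO replicates 1 and 2, and -3.69 and -5.00 without WT replicates 1 and 2. The log2 fold changes of the ADP-ribosyltransferase genes Parp9 and Parp14 were -2.18 and -1.94, and that of Dtx3l, which encodes the ubiquitin ligase that pairs with PARP9, was -1.72. Parp9 and Dtx3l overlap on opposite strands of chromosome 16, so that their reads cannot be told apart unless they were counted by strand. Ifitm3, which hinders virus entry, fell by 0.60 (limma adjusted p 0.0277). Nlrc5, a transactivator of MHC class I genes, rose by 1.98, from 18.6 and 9.82 in WT to 66.1 and 48.4 in H1-TKO.

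Of 7 antigen presentation genes tested 3 fell and none rose. Psmb8, a subunit of the immunoproteasome, had 80.7 and 22.9 in WT against 0 and 1.05 in H1-TKO, on 1 read over both H1-TKO libraries. It passed the filter through its WT values only. Its log2 fold change was -4.95 (SE 0.92, limma adjusted p 0.0132), a size that depends on values at the floor in H1-TKO. It was -4.06 and -5.83 without WT replicates 1 and 2. Psmb10, another subunit, fell by 1.04, and H2-K1, an MHC class I heavy chain gene, fell by 1.01 (limma adjusted p 0.0451). The calls of Irgm1, Gbp2, Parp9, Parp14 and Dtx3l held in 14 of 14 alternatives and that of Psmb8 in 13 of 13. Those of H2-K1 and Ifitm3 held in 9 of 14, that of Nlrc5 in 9 of 13, and those of Psmb10 and Socs3 in 12 of 14. Among the fibroblast markers Col1a1 was lower in H1-TKO (log2 fold change -1.97, limma adjusted p 0.0112) and Thy1 higher (2.02, limma adjusted p 0.00290), and none of the immune cell markers was called.

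**Figure D2:**
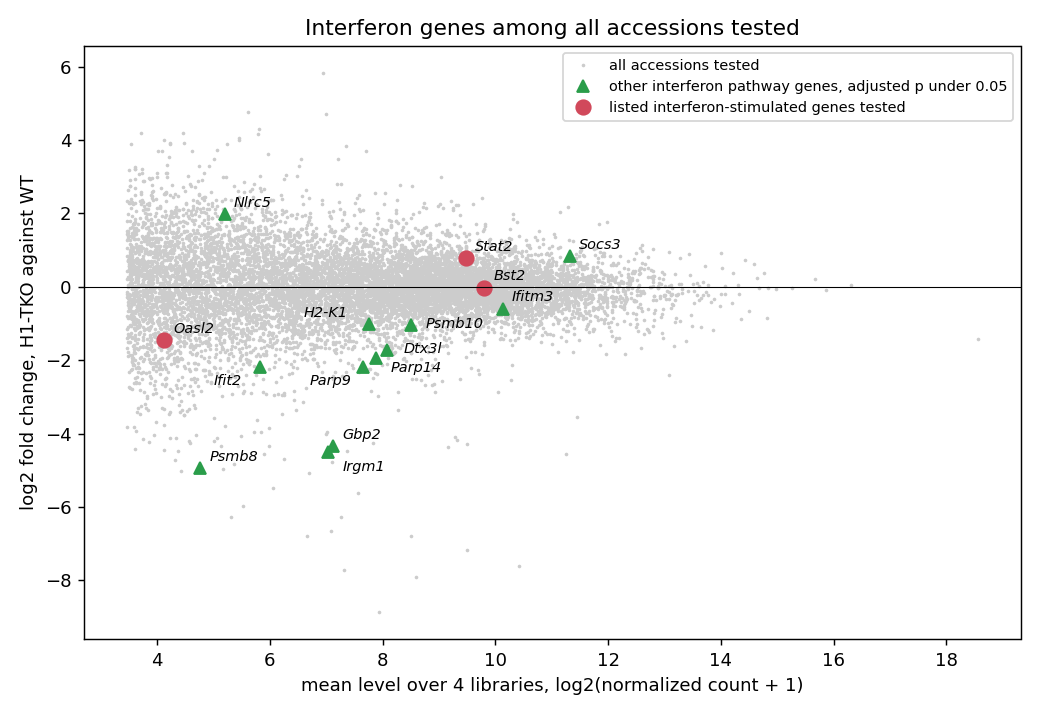
Log2 fold change of H1-TKO against WT (vertical axis) by mean level, log2(normalized count + 1) over 4 libraries (horizontal axis), for the 11113 accessions tested in grey, with the 3 listed genes that were tested in red and other interferon pathway genes past an adjusted p under 0.05 in green. Stat2 lies at 0.79, Bst2 at -0.02 and Oasl2 at -1.46, and 10 of the 12 green points lie below 0.

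**Figure D3:**
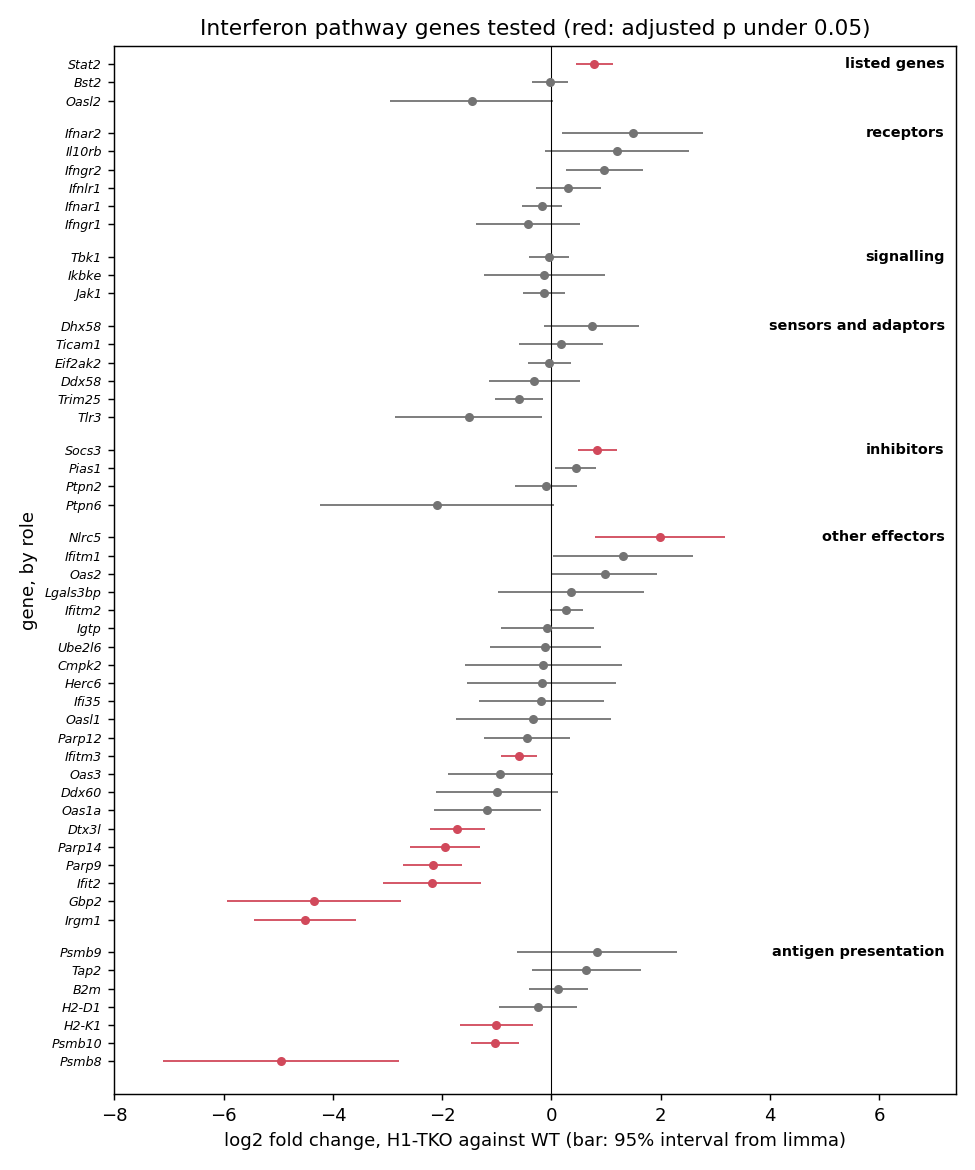
Log2 fold change with its 95% interval from limma for each interferon pathway gene that passed the filter, grouped by role, with red for an adjusted p under 0.05. Among the listed genes the interval of Stat2 lies above 0 and those of Bst2 and Oasl2 hold 0. The lowest points are Psmb8 at -4.95, with 1 read over both H1-TKO libraries, and Irgm1 at -4.52.

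H3K27me3, the mark of Polycomb repression, was examined through the peaks near the 9 genes. In the WT list 2 of the 9 had a peak within 2 kb of a transcription start, Isg15 and Ifih1, and in the H1-TKO list none had. Over 22238 protein-coding genes the shares within 2 kb were 14.4% in WT and 13.1% in H1-TKO. Within 10 kb 3 of the 9 had a peak in WT and 2 in H1-TKO, where the shares of protein-coding genes were 18.4% and 16.7%. The Isg15 peak lay 1.62 kb outside the gene with a MACS score of 111.7, where the score is -10 times the log10 of the p-value, and the nearest H1-TKO peak lay 2.44 kb from the gene with a score of 89.0. The Ifih1 peak lay in the gene with a score of 54.3, and the nearest H1-TKO peak was 253.7 kb away. Stat2 had its nearest peak about as far away in both lists, at 149.0 and 148.9 kb. Bst2 had its nearest peak at 6.18 kb in WT against 6.17 kb in H1-TKO. The lists are those of replicate 1 of the 2 samples per genotype in the labels, and signal of the second samples was not analysed here. No test was made on 1 list each, and a peak missing from a list is not a measure of signal. Of 108 interferon genes, the 9 included, 12 had a peak in WT against 13 in H1-TKO.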

How the data were processed

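Poly(A) RNA-seq tables of mESCs (2 libraries per genotype) were used, with 1 H3K27me3 peak list for WT and 1 for H1-TKO. The authors mapped RNA reads with Subread to the mm9 annotation, kept those mapped uniquely, used featureCounts for counting and divided counts by DESeq2 size factors. The deposited signal is this normalized count per RefSeq accession. The authors called peaks with MACS, and the deposited score is -10 times the log10 of its p-value. All values (100%) were whole multiples of the value of 1 read, within 0.01 reads. Symbols were matched for 33646 of 34010 accessions through a RefSeq table, and genes and peaks were placed in GENCODE M1 on NCBIM37. ISRE letters were searched in RefSeq promoters (GRCm38.p6).

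limma 3.58.1 in R 4.3.3 was run with eBayes and a trend on log2(normalized count + 1) over the 11113 accessions with a mean of at least 10, with Benjamini-Hochberg adjustment over all of them. The scale understates the change of low genes. edgeR 4.0.16 on the recovered reads called 1057 accessions higher and 1106 lower, and DESeq2 1.42.0 called 1130 and 1287. limma itself called 1094 and 1188. The fit was also run on simulated data with the same spread in both genotypes, and no result given here rests on that run. Other pseudocounts, filters, scalings, a block for the replicate number, each library left out, a chromosome median and other peak limits were the alternatives. Where nothing says that libraries came from separate cultures, p-values measure the spread between these libraries, although the study calls its duplicates independent. With 2 replicates per genotype, leaving a library out assumes that the lone one varies like the other genotype.

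The 9 genes and the lists were chosen with earlier results of these data known. One listed item is not reported here. All 9 were to be named, with Ifnb1, Ifnar1, Ifnar2, Jak1, Tyk2, Irf3, every listed gene past the threshold and the defining markers. The other Ifit genes are set beside Ifit1 and Ifit3 by their place. Python 3.11.15, numpy 2.4.6, pandas 2.3.3 and scipy 1.17.1 were used. ChOR-seq and other ChIP-seq were not analysed here.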

Additional observations from a re-analysis of the deposited data

How the results depend on the processing

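Over 107 alternative values 77 kept their direction, side of the threshold or size, and 30 did not. Scaling by total reads moved the median log2 fold change of all accessions from -0.03 to 0.13 and the calls from 1094 higher and 1188 lower to 1469 and 781. With no filter the calls were 624 and 697, and with a mean of at least 1 they were 702 and 765. Leaving out 1 library gave 199 to 2682 higher and 386 to 2786 lower, with the low counts without either H1-TKO library and the high counts without either WT library. Interferon pathway genes called higher came to 1 with no filter, at a mean of at least 1 and at a mean of at least 50, and to 0 to 8 with a library left out. Those called lower came to 7 without either H1-TKO library and up to 17 without WT replicate 1. Bst2 turned to 0.14 with total reads, to 0.018 without H1-TKO replicate 1 (range -0.064 to 0.018 over the libraries left out) and to 0.22 less its chromosome median, always uncalled. Stat2 stayed between 0.76 and 0.82 with a library left out, and lost its call without either H1-TKO library. In the alternatives that kept all libraries its adjusted p in limma, edgeR or DESeq2 ran from 0.00103 to 0.0297. Oasl2 ranged from -1.88 to -1.05 with a library left out and passed only without WT replicate 2. H3K27me3 peaks within 1 kb, or with a score of at least 100, left 1 of the 9 genes in WT, and peaks within 10 kb stood at 3 genes in WT and 2 in H1-TKO. The replicate numbers were not shown to pair the libraries (correlation of deviations 0.011), and with the replicate block 1521 accessions were higher and 1778 lower, with 3 and 12 interferon pathway genes. The cause of these shifts was not tested. Fits of Ifit1 and Isg15 below the filter were added after seeing the data. Depth limits the genes under a mean of 10 normalized counts, for which a few reads set each value.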
